A study of Mus musculus with 4 samples.

Results

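Regulated exocytosis is the release of stored cargo on a signal, usually a rise in calcium. Syntaxin and SNAP proteins on the plasma membrane pair with VAMP proteins on the vesicle to form the SNARE complex, which pulls the membranes together, while synaptotagmins sense calcium and complexins, syntaxin-binding proteins, Rab3 GTPases and RIM proteins control docking and priming. In the stomach, endocrine cells use this machinery to release hormones, and mucous and chief cells use related members to release mucus and enzymes. The members described here are genes whose mouse symbols belong to these families: synaptotagmins (Syt), synaptotagmin-like proteins (Sytl), syntaxins (Stx), VAMPs, the SNAP names Snap23, Snap25, Snap29, Snap47 and Snap91, complexins (Cplx), Rab3, RIMs (Rims), syntaxin-binding proteins (Stxbp), the vesicle proteins Sv2, Syp and Syn1, and the priming factor Cadps. They were picked by symbol and not by a cut on their values, so they include syntaxins of the Golgi and endosomes and Snap91, a clathrin assembly protein. The families themselves were chosen with earlier results of these data known. Of 74 such symbols in RefSeq, 69 had a probe, with 117 probes among 41174 on the array and 17016 named genes. Stx11, Sv2c, Syt5, Sytl3 and Vamp9 were matched to no probe.

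The samples were lineage-negative (Lin-) cells sorted from glandular stomach tumours of K19-Wnt1/C2mE mice at 30 weeks of age, in 2 groups of 2 arrays, Lin- CD44+ and Lin- CD44-. All of them carry the same transgenes, in which the keratin 19 promoter drives Wnt1, Ptgs2 and Ptges in gastric epithelium, so the comparison is between fractions of tumours and has no normal tissue. CD44 is a hyaluronan receptor used to sort cells with tumour-initiating capacity, and the comparison asks which transcripts differ between the fractions. Whether the 2 samples of a group are from different animals is not stated, so the spread behind each p-value may be only technical.

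Each value below is a level on the log2 scale relative to the 75th percentile of its array, and a difference is CD44+ minus CD44-. That percentile was 244 and 493 units of processed signal on CD44+ replicates 1 and 2, and 406 and 527 on CD44- replicates 1 and 2. Spots well above background made up from 53.1% (CD44+ replicate 1) to 69.6% (CD44- replicate 2). Cd44 had levels of 6.31 and 6.54 in CD44+ and 4.26 and 5.11 in CD44- samples, without overlap, and the epithelial marker Epcam had 4.69 and 4.66 against 3.34 and 2.70. Neither passed limma's test (adjusted p = 0.199 for both). CD44- replicate 2 stood apart in stromal genes: all 8 fibroblast markers and all 6 endothelial markers tested were at least 2-fold higher on it than on CD44- replicate 1. Stromal genes were not alone in this. By that much 7 of 17 enteroendocrine, 3 of 5 tuft cell and 2 of 2 parietal cell markers tested were higher too, and 0 of 4 surface mucous markers.

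Most members differed by less than 2-fold between the fractions, and a small group, led by Syt13, Stx2, Rab3b and Rab3c, had more signal in CD44- cells without passing the test over all genes. Of the 69 genes, 52 were tested, that is, had a probe that both arrays of 1 group detected well above background. The other 17 were not tested, among them Cplx1, Cplx4, Rims3, Rims4, Snap25, Snap91, Stxbp4, Sv2a, Sv2b, Syp, Syt2, Syt4, Syt6, Syt9, Syt14 and Syt15. None of the 52 passed at an adjusted p under 0.05 in limma's test, against 0.399% of all 21045 genes tested (0.375% lower and 0.0238% higher in CD44+). An unadjusted p under 0.05 was reached by 4 of the 52 members, Rab3b, Rab3c, Syt13 and Stx2, a smaller share than the 10.8% of all genes. The difference was above 0 for 28 members and below 0 for 24, and above 0 for 60.6% of all genes. It lay within 1 log2 unit for 45 of the 52, against 84.1% of all genes. The groups did not overlap for 14 members (26.9%, against 39.6% of all genes), 8 of them lower in CD44+ (15.4%, against 17.2%) and 6 higher (11.5%, against 22.4%). The median difference of the members was 0.02, against 0.16 over all genes, and the range was from -3.65 to 0.79.

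**Figure D1:**
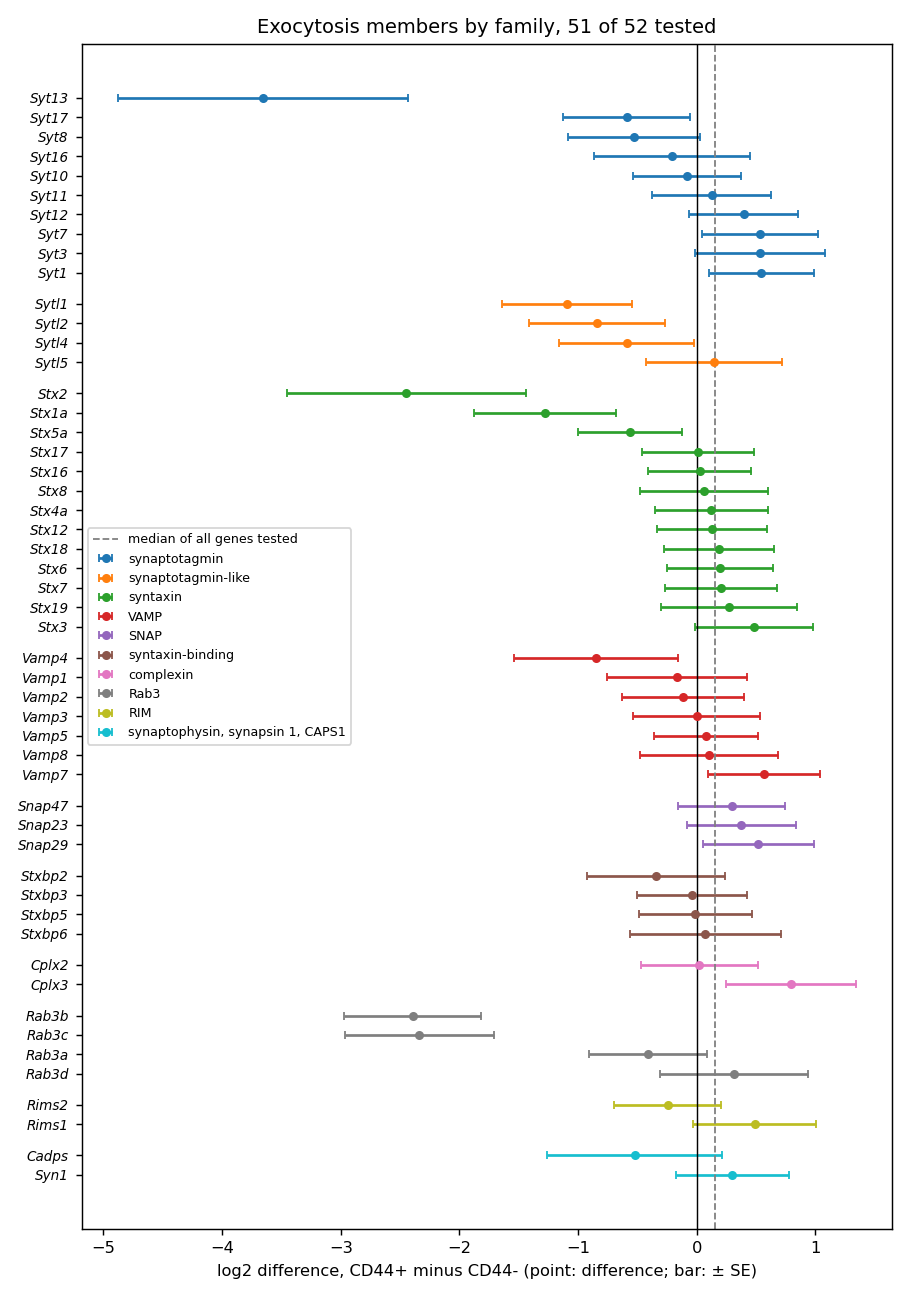
Log2 difference (CD44+ minus CD44-, x axis) of 51 of the 52 members tested, by family; points are the limma estimate from 2 arrays per group, bars ± 1 standard error, and the dashed line the median of all genes (0.16). Most members lie within 1 log2 unit of 0, while Syt13, Stx2, Rab3b and Rab3c lie between -3.65 and -2.34.

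At least 2-fold lower in CD44+ without overlap of the groups were 6 of 52 members, Rab3b, Rab3c, Syt13, Stx2, Stx1a and Sytl1. That is 11.5%, a share near the 9.66% of all genes. At least 2-fold higher were 0, against 3.80% of all genes. Rab3b, Rab3c, Syt13 and Stx1a entered the test only through the CD44- arrays, so the filter favoured the direction in which they differ. Among the 43 members well above background on all 4 arrays, Stx2 and Sytl1 alone were lower by that much. For Rab3c and Stx1a the fold itself is not measured, because on both CD44+ arrays they were below the level called well above background. In bulk samples, fewer cells of a type and less RNA per cell cannot be told apart.

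Syt13, a synaptotagmin that lacks the usual calcium-binding residues and is found in endocrine cells, had the lowest difference of all members. Its levels were -3.71 and -0.26 in CD44+ and 0.17 and 3.16 in CD44- samples, and the first CD44+ value was not well above background. The groups did not overlap, but the replicates of each group lay about as far apart as the fractions did, by 3.45 in CD44+ and 2.99 in CD44- cells. The difference was -3.65 ± 1.22 (SE, 2 arrays per group), 12.6-fold lower in CD44+, with a limma adjusted p of 0.291.

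Rab3b and Rab3c, GTPases that sit on secretory vesicles and bind RIM proteins, had the smallest p of the members. Rab3b had levels of -3.84 (not well above background) and -2.96 in CD44+ and -1.63 and -0.39 in CD44- samples. It was 5.25-fold lower in CD44+ (-2.39 ± 0.58, adjusted p = 0.155), and both CD44- arrays lay above both CD44+ arrays on the probe tested. A dimmer Rab3b probe, not tested, had -5.70 and -4.94 against -6.71 and -2.72, with overlap. Rab3c had measured levels of -5.68 and -7.41 in CD44+ samples, neither well above background, and -4.48 and -3.93 in CD44- samples. Against the lowest signal well above background, averaged over both CD44+ arrays, Rab3c was at least 1.04-fold lower in CD44+. On CD44+ replicate 1 alone that limit lay above both CD44- levels, so this array cannot show which fraction was higher. The fitted difference of -2.34 ± 0.63 (limma adjusted p = 0.186) rests on signals below the limit. Rab3a, the main neuronal form, had 0.01 and 0.87 in CD44+ against 0.63 and 1.07 in CD44- samples (-0.41 ± 0.50), and Rab3d, the form of exocrine granules, had 3.11 and 2.82 against 3.53 and 1.78 (0.31 ± 0.62), both with overlap of the groups. Within the Rab3 family, then, both CD44- arrays had the higher measured signal on the tested probe for 2 members and not for the other 2. For Rab3c this rests on CD44+ signals below the limit, and for Rab3b the dimmer probe did not show it.

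Among syntaxins, the plasma membrane forms Stx2 and Stx1a had the lowest differences. Stx2 had levels of -2.76 and -1.71 in CD44+ and -1.53 and 1.95 in CD44- samples, all well above background. The groups were barely separated, since CD44- replicate 1 lay close to CD44+ replicate 2. The difference was -2.45 ± 1.01 (adjusted p = 0.423), and -0.71 without CD44- replicate 2. Stx1a, the neuronal and endocrine syntaxin, was near background throughout, at -4.86 and -5.75 (neither well above background) against -4.71 and -3.33. Against the lowest signal well above background, averaged over both CD44+ arrays, Stx1a was at least 1.18-fold lower in CD44+ (fitted difference -1.28 ± 0.60, limma adjusted p = 0.525). On CD44+ replicate 1 alone that limit lay above the level of CD44- replicate 1.

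The widely expressed syntaxins differed by less than 2-fold. Stx4a, which acts at the basolateral membrane of epithelia, had 4.29 and 4.95 against 4.70 and 4.28 (0.12 ± 0.48), and Stx3, the apical form, had -2.09 and -2.24 against -2.18 and -3.12 (0.48 ± 0.50). Stx5a, of the Golgi, was the only other syntaxin below 0 and did not overlap between the groups (-0.56 ± 0.44, 0.02 and -0.16 against 0.37 and 0.62). Stx6, Stx7, Stx8, Stx12, Stx16, Stx17, Stx18 and Stx19, of the Golgi, endosomes, endoplasmic reticulum and autophagosomes among other sites, had differences from 0.01 to 0.27 with overlapping groups. Over the 13 syntaxins tested, 10 were above 0, 3 below 0, and the median was 0.12.

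Sytl1, a synaptotagmin-like protein that ties Rab27 vesicles to the membrane, had levels of -0.32 and -0.97 in CD44+ and 1.03 and -0.14 in CD44- samples. It was 2.13-fold lower in CD44+ (-1.09 ± 0.55, adjusted p = 0.578), with groups that lay close together but did not overlap. Its paralogue Sytl2 had 1.30 and 1.18 against 2.82 and 1.34 (-0.84 ± 0.57), also without overlap, and Sytl4 (granuphilin, of endocrine granules) had -0.24 and -0.58 against 0.90 and -0.54 (-0.59 ± 0.57), with overlap. All 3 were highest on CD44- replicate 1 (replicate 2 minus replicate 1 from -1.49 to -1.16), whereas Syt13, Stx2, Stx1a and Rab3b were highest on CD44- replicate 2. Sytl5 had a difference of 0.14 ± 0.57.

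**Figure D2:**
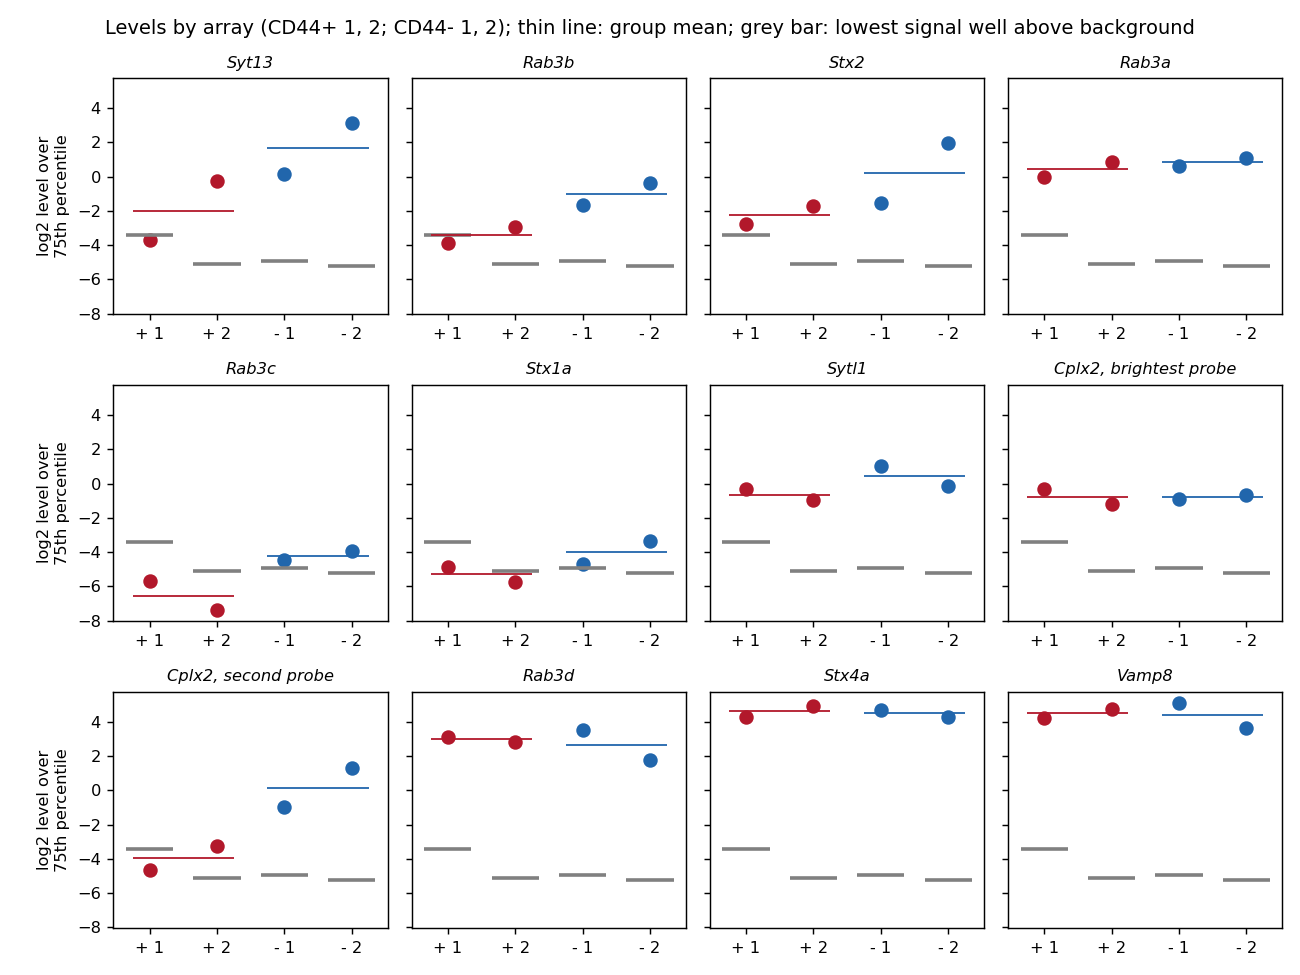
Log2 level relative to the 75th percentile (y axis) on each array (x axis: CD44+ 1 and 2 in red, CD44- 1 and 2 in blue) for 11 members, Cplx2 with 2 probes; thin lines are group means and grey bars the lowest signal well above background on that array. Rab3c lies under the grey bars on both CD44+ arrays, Syt13 and Stx2 are highest on CD44- replicate 2, and Stx4a, Vamp8 and Rab3d stay between 1.78 and 5.11 on all arrays.

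The promoters of 4 of these 6 genes are printed to show 1 motif, the E-box CAGCTG. It is held by Rab3c, Stx1a and Sytl1 and not by Rab3b. The Stx2 window, which lacks it too, is not printed, and Syt13 had no window. Each promoter printed is the 250 bases before the gene's start in RefSeq (GRCm38.p6), on the strand of the gene, with CAGCTG in capitals.
Rab3b (chr4:108878820-108879069, + strand): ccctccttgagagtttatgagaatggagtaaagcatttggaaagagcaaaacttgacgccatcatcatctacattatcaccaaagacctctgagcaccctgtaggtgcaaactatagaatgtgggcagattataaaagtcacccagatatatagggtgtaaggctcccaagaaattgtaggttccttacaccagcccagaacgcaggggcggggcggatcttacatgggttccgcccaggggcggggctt
Rab3c (chr13:110280207-110280456, - strand): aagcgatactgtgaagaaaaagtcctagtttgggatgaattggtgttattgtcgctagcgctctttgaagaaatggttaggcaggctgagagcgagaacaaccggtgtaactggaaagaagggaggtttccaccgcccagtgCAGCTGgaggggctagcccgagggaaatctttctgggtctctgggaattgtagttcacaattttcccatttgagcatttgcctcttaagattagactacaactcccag
Stx1a (chr5:135023232-135023481, + strand): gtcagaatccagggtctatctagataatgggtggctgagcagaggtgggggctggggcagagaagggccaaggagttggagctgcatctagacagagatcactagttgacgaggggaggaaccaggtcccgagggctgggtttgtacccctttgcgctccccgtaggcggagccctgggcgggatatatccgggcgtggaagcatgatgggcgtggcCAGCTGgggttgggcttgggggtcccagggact
Sytl1 (chr4:133263088-133263337, - strand): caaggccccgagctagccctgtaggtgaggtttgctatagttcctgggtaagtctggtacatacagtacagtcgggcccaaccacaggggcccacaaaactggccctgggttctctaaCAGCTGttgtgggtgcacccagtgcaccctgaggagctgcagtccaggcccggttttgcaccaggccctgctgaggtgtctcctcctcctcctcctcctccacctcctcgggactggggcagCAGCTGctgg
CAGCTG starts 108 bases before the start in Rab3c, 33 in Stx1a, and 132 and 10 in Sytl1, and is in neither the Rab3b nor the Stx2 window.

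CAGCTG reads the same on both strands and is a form of the E-box that basic helix-loop-helix proteins bind. It was in 13.0% of all 32851 windows of this length and in the windows of 14.7% of genes. Among the 54 members with a window, 15 held it (27.8%), among them Stx4a, Stx7, Stx12 and Rab3a, which overlapped between the groups. Motifs of other factors were sought on both strands as well. The E-box CAGATG was in 14.4% of windows and 5 members, the cAMP element TGACGTCA in 1.55% of windows and 2 members (Stxbp3 and Syn1). Of the RE1 element that the neuronal repressor REST binds, the left arm TTCAGCACC was in 0.301% of windows and in Syn1 alone among members, and the right arm GGACAGC, which can overlap CAGCTG, in 5.28% of windows and in Stx5a and Syt6. These matches describe letters in a window and not bound sites.

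The other synaptotagmins split in sign, with 5 of 9 above 0, and the median of the whole family was 0.02. Syt7, a high-affinity calcium sensor of dense granules and lysosomes, had -3.04 and -3.64 in CD44+ and -3.54 and -4.20 in CD44- samples (0.53 ± 0.49). Syt12 (0.39) and Syt1 (0.54) were higher in CD44+ without overlap, each within 2-fold, and Syt3 (0.53) and Syt11 (0.12) overlapped. Syt8, Syt10 and Syt16 had differences from -0.53 to -0.08 with overlap. Syt17 overlapped too, and since neither CD44+ array detected it well above background, its fold was not measured. Syt16 ranged from 1.43 to 3.32 and Syt8 from 1.15 to 2.52 over the 4 arrays, each highest on CD44- replicate 1.

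Syt1, the calcium sensor of fast synaptic release, and Cplx2, a complexin of neurons and endocrine cells, had probes that gave different answers. The brightest Cplx2 probe, which stands for the gene, had -0.32 and -1.21 in CD44+ and -0.89 and -0.68 in CD44- samples (0.02 ± 0.49, adjusted p = 0.990). A second Cplx2 probe had -4.64 (not well above background) and -3.23 against -0.98 and 1.28, 16.9-fold lower in CD44+ (-4.08 ± 0.79). With each of 26508 tested probes fitted on its own, a choice made after seeing the data, that second probe had an adjusted p of 0.0904. None of the 79 member probes tested passed, against 0.430% of all probes, and 6 had an unadjusted p under 0.05, against 10.4%. The second tested Syt1 probe was likewise lower, at -5.70 (not well above background) and -4.64 against -4.07 and -3.81 (-1.23 ± 0.51, adjusted p = 0.445), whereas the brightest had -2.60 and -2.94 against -3.30 and -3.33. Which transcripts these probes match was not analysed here. Of 19 members with more than 1 tested probe, 15 had differences within 1 log2 unit of each other, and the exceptions were Cplx2, Syt1, Stx6 (-0.94 and 0.19) and Vamp4 (0.27 and -0.85). Probes too dim to be tested are not in this count. Such probes of Rab3b (-0.61), Syt13 (0.32) and Stx2 (0.33) overlapped between the groups, and that of Rab3c (-2.05) did not.

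SNAP proteins, partners of syntaxin, were represented by their widely expressed forms. Snap23, the form of non-neuronal cells, had 2.41 and 2.55 in CD44+ and 2.40 and 1.81 in CD44- samples (0.37 ± 0.46). Snap29 (0.52) and Snap47 (0.29) were also higher in CD44+, and none of the 3 overlapped between the groups. Each stayed above 0 in all 12 alternative settings, but where groups do not overlap, leaving out 1 array cannot turn the sign. The adjusted p ran from 0.793 to 0.856 in limma's test, and each difference was within 2-fold. Snap25, the neuronal and endocrine form, was not tested.

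The VAMP proteins on the vesicle side all lay within 1 log2 unit of 0. Vamp8, the form used by exocrine and mast cell granules, had 4.22 and 4.76 in CD44+ and 5.11 and 3.66 in CD44- samples (0.10 ± 0.58). Vamp2, the main form of synaptic vesicles and endocrine granules, had -1.73 and -0.82 against -1.46 and -0.85 (-0.12 ± 0.51). Vamp1, Vamp3, Vamp5 and Vamp7 had differences from -0.17 to 0.57, and Vamp7 alone did not overlap. Vamp4, of the trans-Golgi network, had -3.12 and -1.49 against -2.16 and -0.75 (-0.85 ± 0.69), with a gap of over 2-fold between the replicates of both groups.

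Among syntaxin-binding proteins, which guide syntaxin into the SNARE complex, the groups overlapped in all 5 members tested. Stxbp2, of epithelial and mast cells, had -1.10 and -1.79 against -0.41 and -1.79 (-0.35 ± 0.58), and Stxbp3 had 2.90 and 3.38 against 3.42 and 2.94 (-0.04 ± 0.47). Stxbp5 and Stxbp6 had differences of -0.01 and 0.07.

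In the remaining members the groups overlapped. Cplx3 had the highest difference of all members, with -1.51 and -2.52 in CD44+ against -2.39 and -3.22 in CD44- samples (0.79 ± 0.54, adjusted p = 0.751). Rims1 and Rims2, scaffolds of the release site, had differences of 0.49 and -0.24. Cadps (CAPS1), a priming factor of dense-core granules, was low on 3 arrays and higher on CD44- replicate 1, at -3.77 (not well above background) and -4.26 against -2.32 and -4.66 (-0.52 ± 0.74). Syn1, a synapsin, had 3.41 and 2.70 against 2.93 and 2.59 (0.30 ± 0.48).

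Detection of member probes differed between the arrays. Of the 117 member probes, 64 and 80 were well above background on CD44+ replicates 1 and 2. These were 54.7% and 68.4%, against 52.6% and 65.0% of all probes. On CD44- replicates 1 and 2, 82 and 91 were (70.1% and 77.8%, against 66.1% and 69.1%). On no array were 23 so (19.7%, against 27.7%). On CD44- replicate 2 alone 10 member probes were detected (8.55%, against 3.47% of all probes). On CD44- replicate 1 alone 1 was (0.855%, against 1.09%), and on CD44+ replicates 1 and 2 alone 0 (against 0.253% and 0.996%). The 10 belong to Rab3c, Snap91, Sv2a, Sv2b (2 probes), Cplx2, Cadps, Syt4, Syt11 and Syt13. SV2 proteins are glycoproteins of synaptic and endocrine vesicles, and Syt4 is a synaptotagmin of dense-core granules. Their processed signals on that array ran from 15.0 to 62.9 units, where the lowest signal well above background was 14.1. That limit was higher relative to the 75th percentile on CD44+ replicate 1, the dimmest array, and what part this had in the counts was not tested.

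**Figure D3:**
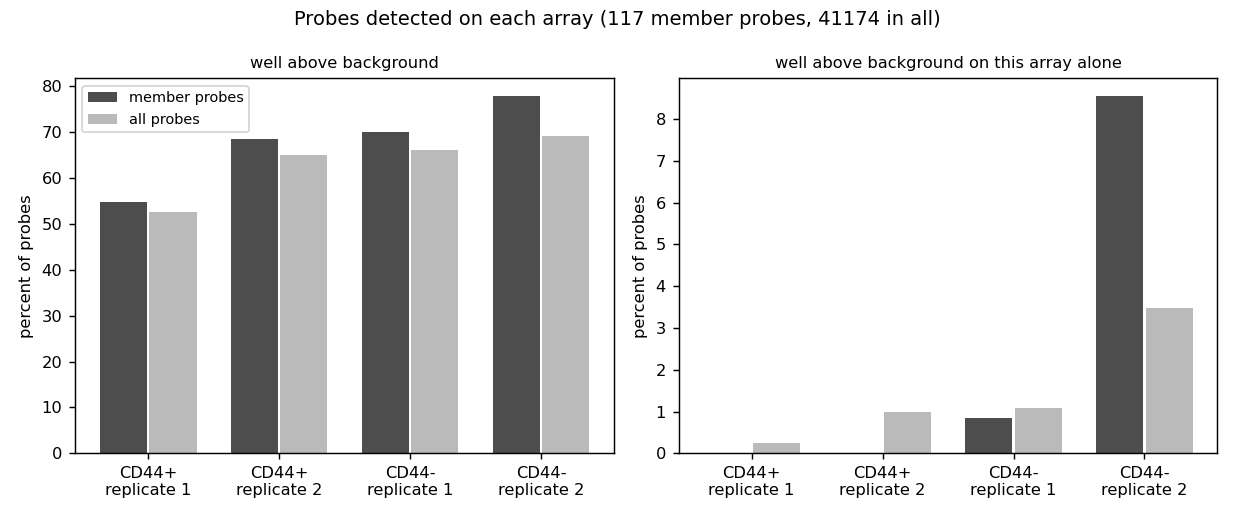
Percent of probes well above background on each array (left) and on that array alone (right), for the 117 member probes and all 41174 probes. On the left, member probes exceed all probes on every array, by most on CD44- replicate 2 (77.8% against 69.1%). On that array alone they are at 8.55%, against 3.47%.

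The replicates of the CD44- group differed from each other in both directions. On CD44- replicate 2, 6 of 52 members (11.5%, against 10.9% of all genes), among them Rab3b, Stx1a, Stx2, Syt13 and Vamp4, were at least 2-fold higher than on replicate 1. On CD44- replicate 1, 14 members (26.9%, against 9.30% of all genes) were at least 2-fold higher than on replicate 2: Cadps, Rab3d, Stx8, Stx19, Stxbp2, Stxbp6, Syt8, Syt16, Sytl1, Sytl2, Sytl4, Vamp1, Vamp3 and Vamp8. The first set holds 4 of the 6 members that were at least 2-fold lower in CD44+ without overlap, and the second, apart from Sytl1, holds none of them. In CD44+ cells, 3 members were higher by that much on replicate 2 and 5 on replicate 1.

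**Figure D4:**
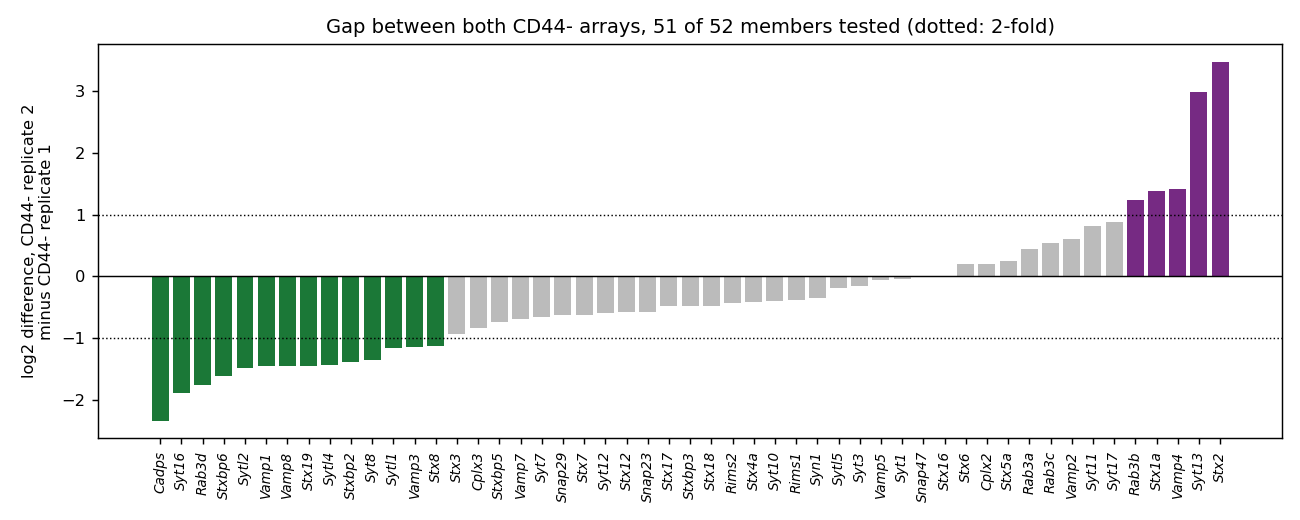
Log2 difference between CD44- replicate 2 and CD44- replicate 1 (y axis) for 51 of the 52 members tested, with dotted lines at 2-fold. Syt13 and Stx2 reach 2.99 and 3.48, while 14 members lie below -1.

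Because of this gap, several values depended on which CD44- array was used. They depended on the CD44+ array as well. Without CD44+ replicate 1, the differences of Syt13, Stx2, Rab3b and Rab3c were -1.93, -1.92, -1.95 and -3.20. Without CD44+ replicate 2, they were -5.38, -2.98, -2.83 and -1.47. With CD44- replicate 1 left out, so that the lone CD44- array is assumed to vary like the other group, Syt13 (-5.15, adjusted p = 4.9e-08), Stx2 (-4.19, 9.66e-07), Rab3b (-3.01, 0.000596) and Rab3c (-2.61, 0.00551) were among 5 members that passed limma's test as lower, in a fit that called 6.65% of all genes lower. Without CD44- replicate 2, no member passed, and the differences of these 4 were -2.16, -0.71, -1.77 and -2.07. Scaling each array to its median moved the median of all genes from 0.16 to 0.26 and called Syt13 (adjusted p = 0.0292), Rab3b (0.0337) and Rab3c (0.0373) lower, beside 2.98% of all genes. The authors' deposited value table, put through the same fit, called the same 3 members beside 3.00% of all genes. Normexp background correction called Syt13 (-2.68, 1.07e-05) and Stx2 (-1.74, 0.0213), beside 2.10% of all genes, and left Rab3c at -0.15 and Stx1a at -0.02. The sign stayed below 0 for all 6 members in every alternative in which they were tested. These members were picked for groups without overlap, so leaving out 1 array could not have turned it. For Rab3c and Stx1a the size under normexp was near 0.

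The other genes of the pathway, 92 in number and chosen from their known roles, had 69 tested. None passed in either direction, against 0.399% of all genes, and 3 had an unadjusted p under 0.05 in limma's test, a smaller share than the 10.8% of all genes. The difference was above 0 for 52 and below 0 for 17, and above 0 for 60.6% of all genes. Their median was 0.17, against 0.16 over all genes. The general parts of the machinery had small differences: other SNAREs, with 12 tested, from -0.32 to 0.32; Nsf and its partners, which take SNARE complexes apart, with 4 tested, from -0.03 to 0.36; and the exocyst tethering complex, with 8 tested, from -0.25 to 0.47. Among docking and priming factors, Unc13b (0.31) and Cadps2 (0.30) lay above 0 and Rab27b, a granule GTPase, lay at -1.14 with overlapping groups. At least 2-fold lower without overlap were 4 of the 69 genes, a smaller share than the 9.66% of all genes. These were the synapsin Syn2 (-1.40 ± 0.49, limma adjusted p = 0.320) and the calcium channel subunits Cacna2d3 (-2.35 ± 0.63, 0.185), Cacnb4 (-1.66 ± 0.49, 0.224) and Cacna2d1 (-1.02 ± 0.54, 0.612). Higher by that much were 0, against 3.80% of all genes. Cacna2d1 and Cacna2d3 were dim in CD44+ samples, below the level called well above background on both arrays. Calcium channels let in the calcium that starts release, and they were the subgroup with most members below 0, 6 of 9. The other 3 were above 0, against 60.6% of all genes.

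Markers of cells that could carry this machinery moved with the fractions. Of 18 enteroendocrine markers, 17 were tested and all were below 0, with 6 called lower in CD44+, 15 at least 2-fold lower without overlap and a median of -2.80. Their summed level relative to the 75th percentile was 6.06 and 6.20 in CD44+ and 312 and 723 in CD44- samples. The granule protein Chga had -1.82 and 0.86 against 6.29 and 7.93 (-7.58 ± 0.90, adjusted p = 0.0212), and Chgb had -2.25 and -2.07 against 5.49 and 6.31 (-8.06 ± 0.48, adjusted p = 0.00174). The endocrine transcription factors Insm1 and Neurod1 were likewise too dim on both CD44+ arrays and had fitted differences of -2.16 and -2.80 (adjusted p = 0.204 and 0.149). Beside these granule proteins, the fusion proteins Vamp2, Snap23, Snap29, Snap47, Stx3 and Stx4a had differences from -0.12 to 0.52. Other fusion proteins lay lower, with Stx2 at -2.45, Stx1a at -1.28 and Vamp4 at -0.85, and Snap25 was not tested. Whether granule and fusion proteins differ as sets was not tested.

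Neurons hold much of the same machinery. Of 10 neuronal markers, 5 were tested, 2 of them below 0 and none called (median 0.02), with summed levels of 1.27 and 1.05 against 1.06 and 1.36. Elavl3 (-1.73) and Elavl4 (-2.07) were the 2 below 0, and 5 others, among them Prph, Nefm, Ret and Snhg11, were not tested. The glial markers had a median of -0.02 over 5 tested. Fibroblast markers (8 of 8 below 0, summed levels 8.04 and 43.3 against 69.9 and 468) and endothelial markers (5 of 6 below 0, 0.65 and 1.83 against 5.87 and 102) were lower in CD44+ too, with 0 called, and were highest on CD44- replicate 2, as were Stx2, Syt13 and Rab3b. The summed levels of enteroendocrine, squamous, tuft, parietal and chief cell markers were highest on that array as well. Squamous markers (5 of 7 below 0, 1 called lower, median -6.20, summed levels 14.7 and 2.09 against 208 and 356) and tuft cell markers (4 of 5 below 0, 1 called lower, median -2.24, summed levels 1.87 and 3.43 against 7.16 and 16.8) were also at higher summed levels in CD44- samples. Mast cell markers, whose cells also release granules, lay the other way, with 6 of 6 above 0 and 1 called. The part of any of these cell types in the member values was not tested.

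**Figure D5:**
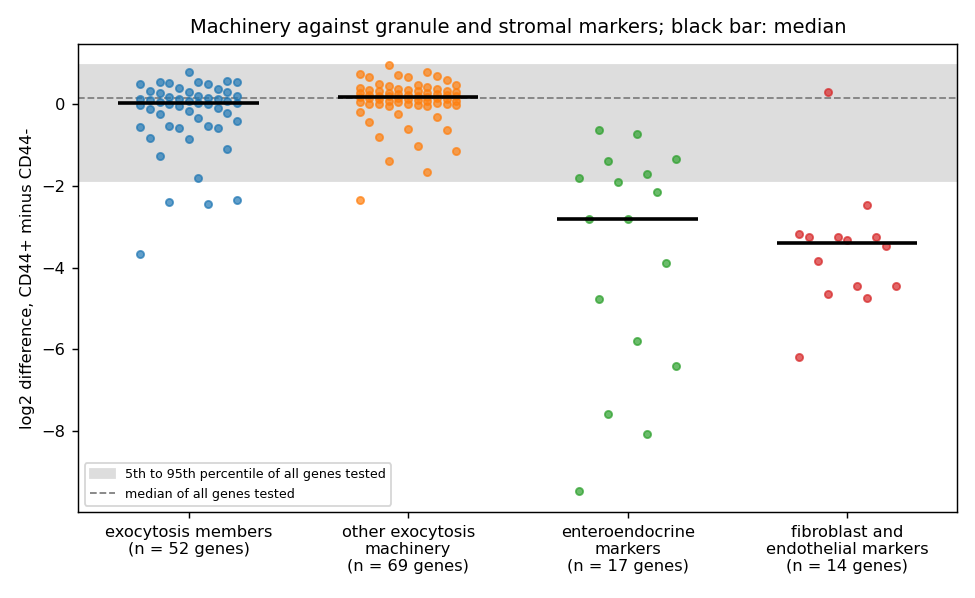
Log2 difference (CD44+ minus CD44-, y axis) of each gene tested, for 52 members, 69 other machinery genes, 17 enteroendocrine markers and 14 fibroblast and endothelial markers; black bars are medians, and the grey band spans the 5th to 95th percentile of all genes (-1.87 to 0.95). Both machinery sets centre near 0 (0.02 and 0.17) and the enteroendocrine markers at -2.80.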

How the data were processed

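RNA of 4 sorted cell samples was measured on 4 arrays of 1 colour. The authors deposited 1 scanner table per array, in which the processed signal and the raw spot and background signals are intensities on a linear scale, per the file headers. The headers name Agilent Feature Extraction 10.1.1.1 and the submitters' processing notes name 9.5. The deposited value table holds a ratio of each probe to its median over the arrays, with how the arrays were scaled not given in the sources used here. Other deposited columns are flags of 0 or 1, per the file headers.

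Control spots and 109 to 133 outlier spots on each array were dropped and the spots of a probe averaged. Levels are log2 processed signals after subtraction of the array's 75th percentile. Accessions were matched to RefSeq (GRCm38.p6), which named 24375 of 41174 probes. Since the array was designed on another build, probes get no coordinates. A probe was tested if measured on all 4 arrays and, in 1 group or both, well above background on each array. A gene was its brightest tested probe, and an accession with no symbol counted as its own gene. Groups were compared with limma 3.58.1 in R 4.3.3 (lmFit and eBayes, no covariates, 2 residual and 6.01 prior degrees of freedom), with Benjamini-Hochberg adjustment over 21045 genes and a threshold of 0.05. The steps were tested on simulated data. A value after ± is the fit's standard error.

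The members and the other gene lists were chosen with earlier results of these data known. Array values were given for members whose groups did not overlap and lay 2-fold or more apart, and for close paralogues. Cadps, Sytl2, the second probes of Cplx2 and Syt1, and the single members named for a gap between replicates were chosen after their values were seen. Counts are over all members, and a few genes they include are not reported here by name. Alternatives changed the scaling, background correction, filter, probe choice, value table, replicate block and arrays used.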

Additional observations from a re-analysis of the deposited data

How the results depend on the processing

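With 2 arrays per group and 2 residual degrees of freedom, the number of arrays limits every value, and signal near background limits Rab3c, Stx1a and the members not tested. The cause of the changes below was not tested. The prior degrees of freedom of the fit were 6.01 on 4 arrays and 87.8 with either CD44- array left out, where a lone array is assumed to vary like the other group. No slide or scan block was run, since all 4 arrays share 1 slide and 1 scan.

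Genes called lower and higher in CD44+ were 79 and 5, and became 627 and 121 with median scaling, 6 and 0 with quantile normalization, 442 and 98 with normexp, 24 and 0 with no filter, 632 and 121 with the authors' value table, and 18 higher with only probes well above background on all 4 arrays. Leaving out 1 array gave from 2 to 1399 lower and from 0 to 191 higher. Members called lower were 0, and became 3 with median scaling and with the authors' table, 2 with normexp, and from 0 to 5 with 1 array left out; 0 were called higher in each of these. Members at least 2-fold lower without overlap were 6, against 3 with normexp, 2 with only probes well above background on all arrays, and from 6 to 10 with 1 array left out. Those at least 2-fold higher were 0, against 2 with no filter (Cplx1 and Cplx4) and from 0 to 3 with 1 array left out. Called genes of the related machinery were 0, against 1 with median scaling and with the authors' table and from 0 to 2 with 1 array left out. The members' median ran from -0.21 to 0.32 and that of the related machinery from -0.022 to 0.33 with 1 array left out.

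Cplx2 turned to -2.03 and Syt1 to -0.34 with the mean of a gene's probes. With 1 array left out, Cplx2 ran from -0.42 (without CD44+ replicate 1; -0.08 without CD44- replicate 1) to 0.47, and Cadps from -1.69 to 0.65 (without CD44- replicate 1).

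With the replicate number as a block, 1493 genes were called lower (7.09%) and 336 higher, 5 members lower (among them Syt13, Stx2, Rab3b and Rab3c) and 2 genes of the related machinery. Same-numbered arrays deviated together with a correlation of 0.347 across genes, but with 2 pairs nothing in the labels says that a number marks a shared source.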
